A study of Danio rerio with 8 samples.

Results

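The genes described here encode the enzymes that remove peroxides and superoxide, the enzymes that make and use glutathione, the thioredoxin system, and the Nrf2 and Keap1 proteins that regulate many of them. Membership was set by a rule on gene symbols, chosen with earlier results of these data known. The rule took gpx, prdx, txn, gst and mgst followed by a family letter or number, gclc, gclm, gsr, gss, nqo1, sod1 to sod3, cat, srxn1, nfe2l2 and keap1. The rule found 65 of the 24221 genes in the count table, spread over 23 chromosomes. It also takes in thioredoxin-like proteins such as txnl4a, known as a splicing factor, which are not antioxidant enzymes.

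GFP-positive cells were sorted at 6 days post fertilization from dissociated TL-strain zebrafish, in which the mpeg:GFP reporter marks the macrophage lineage, and their RNA was sequenced. The groups were 4 libraries from rraga mutants and 4 from their wild-type siblings. rraga encodes RagA, a GTPase of the lysosome surface that takes part in amino acid sensing by mTORC1. All larvae carried the reporter and were raised with PTU, an inhibitor of pigment formation, and genotype was scored by confocal imaging on days 4 and 5. The labels give neither the rraga allele nor the number of larvae per library, and they call the libraries biological replicates without saying whether separate clutches were used, so the p-values measure the spread between these libraries. Because each library is a bulk sample, a change in the mix of sorted cells and a change in RNA per cell cannot be told apart.

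As background, cells reduce hydrogen peroxide and lipid peroxides along a pair of routes. Glutathione peroxidases spend glutathione, a peptide made by glutamate-cysteine ligase (subunits gclc and gclm) and glutathione synthetase (gss) and recycled by glutathione reductase (gsr), while peroxiredoxins draw their electrons mostly from thioredoxin and thioredoxin reductase. Glutathione S-transferases couple glutathione to reactive compounds, and the transcription factor Nrf2 (nfe2l2a and nfe2l2b), held in check by Keap1, drives many of these genes. Macrophages produce superoxide with the phagocyte NADPH oxidase and degrade engulfed cells in lysosomes, so they are exposed to oxidants and to iron.

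The libraries held 24940664 to 30911560 counts in mutants and 25530526 to 29147340 in siblings. Levels are given as CPM, a count scaled to a common library size with TMM factors, and values for each genotype are listed in the order of the library numbers 1, 2, 4 and 5. rraga itself was at 199 ± 14.3 CPM in mutants and 129 ± 9.97 in siblings (SD, n = 4 each; log2 fold change 0.63, SE 0.098, edgeR adjusted p = 0.00141). It was therefore not reduced at the RNA level, and since the allele is not given, this does not check the genotype. Of 11 macrophage markers, 2 (spi1b, grn1) were higher and 3 (mpeg1.1, cd74a, lcp1) lower in mutants, and the other 6 did not pass. In mutants and siblings grn1 was at 2886.5 and 208 CPM and spi1b at 1428 and 685. cd74a was at 28.4 and 279 CPM, mpeg1.1 at 65.5 and 231, and lcp1 at 2468 and 3846. The summed level of the 11 ranged from 10160 to 14170 CPM in mutants and from 10360 to 14740 in siblings. Because single markers moved in opposite directions, the sum does not show that macrophage content was equal. Summed muscle markers ranged from 405 to 3614 CPM in mutants against 2430 to 4242 in siblings, epidermal markers from 203 to 733 against 633 to 948, liver, gut and pancreas markers from 122 to 721 against 332 to 1726, and neutrophil markers from 1300.0 to 3094 against 1157 to 3540. Pigment-cell markers ranged from 617 to 6852 CPM against 885 to 4435, erythroid markers from 1.25 to 48.0 against 22.7 to 64.7, photoreceptor and lens markers from 4.61 to 77.2 against 32.1 to 57.02, neuronal markers from 3.00 to 8.22 against 4.24 to 17.6, and glial markers from 1.62 to 4.38 against 4.01 to 9.32. The endothelial sum was 44.5 to 68.3 CPM in mutants and 32.3 to 37.0 in siblings, carried by fli1a and pecam1, while cdh5 and kdrl stayed at or below 0.848 CPM. The part of these other cells in the results below was not tested.

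The antioxidant genes as a group did not move one way, and their shares of changed genes lay near those of all tested genes. Of the 65 genes, 59 had enough counts to be tested and 6 (gpx3, gpx7, gpx8, sod3a, gstk2 and gstk4) did not, with at most 40 counts in any library. By the quasi-likelihood test of edgeR, with Benjamini-Hochberg adjustment over all 16086 tested genes, 11 of the 59 were higher in mutants, which is 18.6% against 14.5% of all tested genes, and 8 were lower, which is 13.6% against 13.9%. The other 40 did not pass. With the library number as a block 14 of the 59 were higher and 13 lower (all genes 17.8% and 16.6%), and with scaling by library size alone 9 were higher and 11 lower (all genes 10.3% and 19.4%). Without mutant library 5 or without sibling library 5 the lower count was 5 (all genes 11% and 10.2% lower). The 2 genotypes did not overlap in CPM for 20 of the 59 (33.9%), close to the 31.4% of all tested genes. The median log2 fold change of the 59 was 0.05 beside -0.09 for all tested genes. With scaling by library size alone the all-gene median moved to -0.26.

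The antioxidant genes were more abundant than most: the median of the 59 was 32.6 CPM against 8.52 CPM for all tested genes. Among genes above 100 CPM, 10 of 18 antioxidant genes changed (55.6%), as did 59.2% of all 2025 such genes, and between 10 and 100 CPM 7 of 28 changed (25%) against 36.9%. All 19 changed genes moved in the same direction in 4 of 4 same-numbered library pairs, and 18 of the 40 that did not pass also did. For all of the 19 but gpx1b the genotypes did not overlap, so any pairing must agree and the count adds no support. The share over all tested genes is not given here. Together the 65 genes took 0.805% ± 0.118 of all counts in mutants and 0.618% ± 0.0422 in siblings (SD, n = 4 each), with no overlap. On this scale that difference lay in 1 gene, gstp1, at 0.273% ± 0.115 of all counts in mutants and 0.0813% ± 0.0291 in siblings. The other 64 genes together took 0.532% ± 0.0282 and 0.536% ± 0.0151, with overlapping ranges. These shares use raw library totals without the TMM factors, which were 0.915 to 0.975 in mutants and 1.002 to 1.109 in siblings. With TMM factors mutants would stand higher relative to siblings, and the 64 genes were not summed on that scale.

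**Figure D1:**
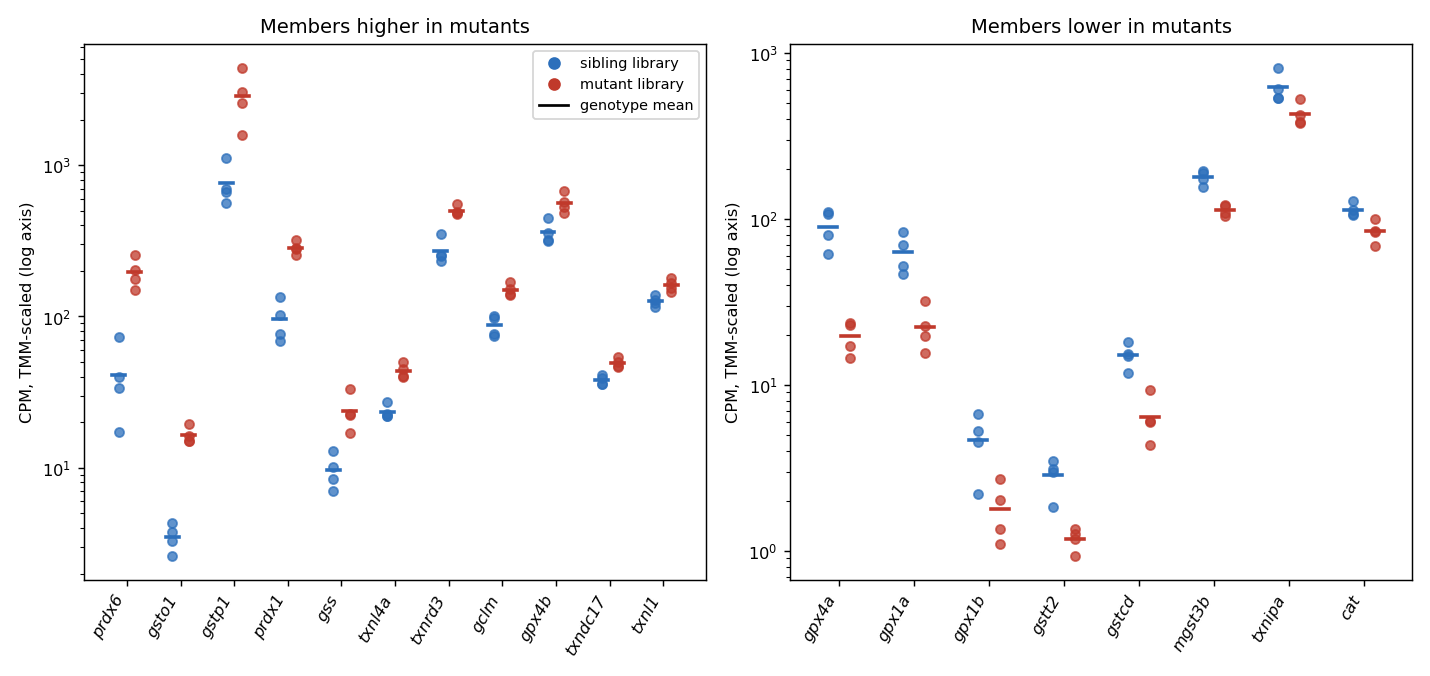
Level in CPM (log axis) of the 11 genes higher and the 8 genes lower in rraga mutants, with 1 point per library and a bar at the genotype mean. gstp1 lies far above the other genes in mutants, while in siblings its range overlaps that of txnipa. gpx1b is the gene with overlapping genotypes among the 19.

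The regulators showed no change that passed the test. nfe2l2a, the abundant Nrf2 gene, was at 653, 786, 786 and 742 CPM in mutants and 611, 742, 744 and 625 CPM in siblings, overlapping ranges (log2 fold change 0.13, SE 0.112, edgeR adjusted p = 0.448). The other copy, nfe2l2b, known in zebrafish as a weaker and partly repressive Nrf2, was at 2.52, 2.63, 5.37 and 5.51 CPM in mutants and 8.96, 3.60, 7.79 and 12.7 CPM in siblings. The siblings tended higher but the genotypes overlapped, with a log2 fold change of -1.04 (SE 0.416, edgeR adjusted p = 0.0922). With the library number as a block nfe2l2b passed (-1.01, edgeR adjusted p = 0.0327), and it also passed without sibling library 2 (edgeR adjusted p = 0.0324).

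keap1a, a subunit of the ligase that marks Nrf2 for degradation, was at 93.7, 89.4, 86.0 and 145 CPM in mutants and 94.5, 76.9, 109 and 119 CPM in siblings (edgeR adjusted p = 0.882). Its mutant library 5 stood above the other mutants, and the genotypes overlapped. keap1b was at 49.8, 51.3, 48.9 and 53.1 CPM in mutants and 39.8, 47.4, 45.7 and 36.4 CPM in siblings. All mutants lay above all siblings, yet the log2 fold change of 0.26 (SE 0.113) did not pass (edgeR adjusted p = 0.114). nqo1, the quinone reductase often used as an Nrf2 readout, was at 23.8 ± 9.54 CPM in mutants and 32.2 ± 8.72 in siblings (edgeR adjusted p = 0.297).

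Of the glutathione synthesis genes, gclm and gss rose, and gclc did not pass. With gsr these are 4 genes, of which 50% were higher, against 14.5% of all tested genes. By level, 59.2% of all tested genes above 100 CPM changed in either direction, where gclm lay. Between 10 and 100 CPM, where gss lay, 36.9% did. gclm, the modifier subunit of glutamate-cysteine ligase, was at 139, 168, 151 and 141 CPM in mutants and 76.7, 101, 98.1 and 74.0 CPM in siblings. Each mutant lay above each sibling, a 1.71-fold difference (log2 fold change 0.78, SE 0.132, edgeR adjusted p = 0.00232). gss, which adds glycine to complete glutathione, was at 22.4, 16.9, 33.2 and 22.7 CPM in mutants and 8.41, 7.005, 12.9 and 10.1 CPM in siblings, again without overlap (log2 fold change 1.31, SE 0.249, edgeR adjusted p = 0.00407). gclc, the catalytic subunit, was at 101 ± 14.05 CPM in mutants and 98.7 ± 22.6 in siblings (log2 fold change 0.03, SE 0.171, edgeR adjusted p = 0.92). gsr, the reductase that regenerates glutathione, was at 45.9 ± 30.3 CPM in mutants and 73.0 ± 21.7 in siblings and did not pass (edgeR adjusted p = 0.311). With the library number as a block gsr passed as lower (log2 fold change -0.88, edgeR adjusted p = 0.0316).

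All 4 tested glutathione peroxidases changed: gpx4b was higher and gpx4a, gpx1a and gpx1b were lower. Of all tested genes, 14.5% were higher and 13.9% lower. GPX4 proteins are known for reducing lipid peroxides within membranes, the reaction that holds back ferroptosis. gpx4b, the abundant copy, was at 526, 482, 678 and 569 CPM in mutants and 322, 313, 448 and 356 CPM in siblings. Mutants lay above siblings in each library, a 1.57-fold difference (log2 fold change 0.65, SE 0.150, edgeR adjusted p = 0.0105). gpx4a was at 23.1, 17.1, 23.6 and 14.5 CPM in mutants and 109.7, 79.8, 61.7 and 107 CPM in siblings. Here the mutants lay far below, 4.58-fold (log2 fold change -2.20, SE 0.231, edgeR adjusted p = 0.000164). Per length gpx4b exceeded gpx4a in both genotypes, at 639 against 13.1 RPKM (reads per kilobase of gene model, scaled like CPM) in mutants and 408 against 60.1 RPKM in siblings. Their summed level was 583 ± 86.6 CPM in mutants and 449 ± 49.4 CPM in siblings, with overlapping ranges.

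GPX1 is the soluble peroxidase for hydrogen peroxide. gpx1a was at 22.6, 19.7, 32.0 and 15.5 CPM in mutants and 69.2, 46.3, 83.2 and 52.3 CPM in siblings. The genotypes did not overlap and the mutants were 2.79-fold lower (log2 fold change -1.48, SE 0.253, edgeR adjusted p = 0.00237). The scarcer gpx1b moved the same way, at 1.80 ± 0.719 CPM in mutants and 4.67 ± 1.87 CPM in siblings, but its genotypes overlapped (log2 fold change -1.37, SE 0.409, edgeR adjusted p = 0.0321). gpx1b no longer passed when mutant library 2, 4 or 5 was left out (edgeR adjusted p = 0.0804, 0.0550 and 0.0813) or sibling library 1, 4 or 5 (edgeR adjusted p = 0.0766, 0.0874 and 0.0658), with log2 fold changes of -1.15 to -1.43. The gene models of gpx4a and gpx1a overlap other genes. polr2eb, on the strand opposite to gpx4a, held 97.1% as many counts as gpx4a and did not pass (log2 fold change -0.29, edgeR adjusted p = 0.199). brk1, on the same strand as gpx1a, held 436% as many and did not pass either (log2 fold change 0.12, edgeR adjusted p = 0.412). No source used here gives the strand setting of the counting, so how reads were shared within these overlaps is uncertain.

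GPX1, GPX3, GPX4 and the thioredoxin reductases are known selenoproteins, which carry selenocysteine in the active site. Of the 7 genes of these families found here, 6 were tested, of which 2 were higher (gpx4b and txnrd3), 3 were lower (gpx4a, gpx1a and gpx1b) and txnrd2.2 did not pass. For comparison, 14.5% of all tested genes were higher and 13.9% lower. Above 100 CPM, where gpx4b and txnrd3 lay, 59.2% of all tested genes changed in either direction. That share was 36.9% between 10 and 100 CPM (as gpx4a and gpx1a) and 14.1% below 10 CPM (as gpx1b and txnrd2.2).

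**Figure D2:**
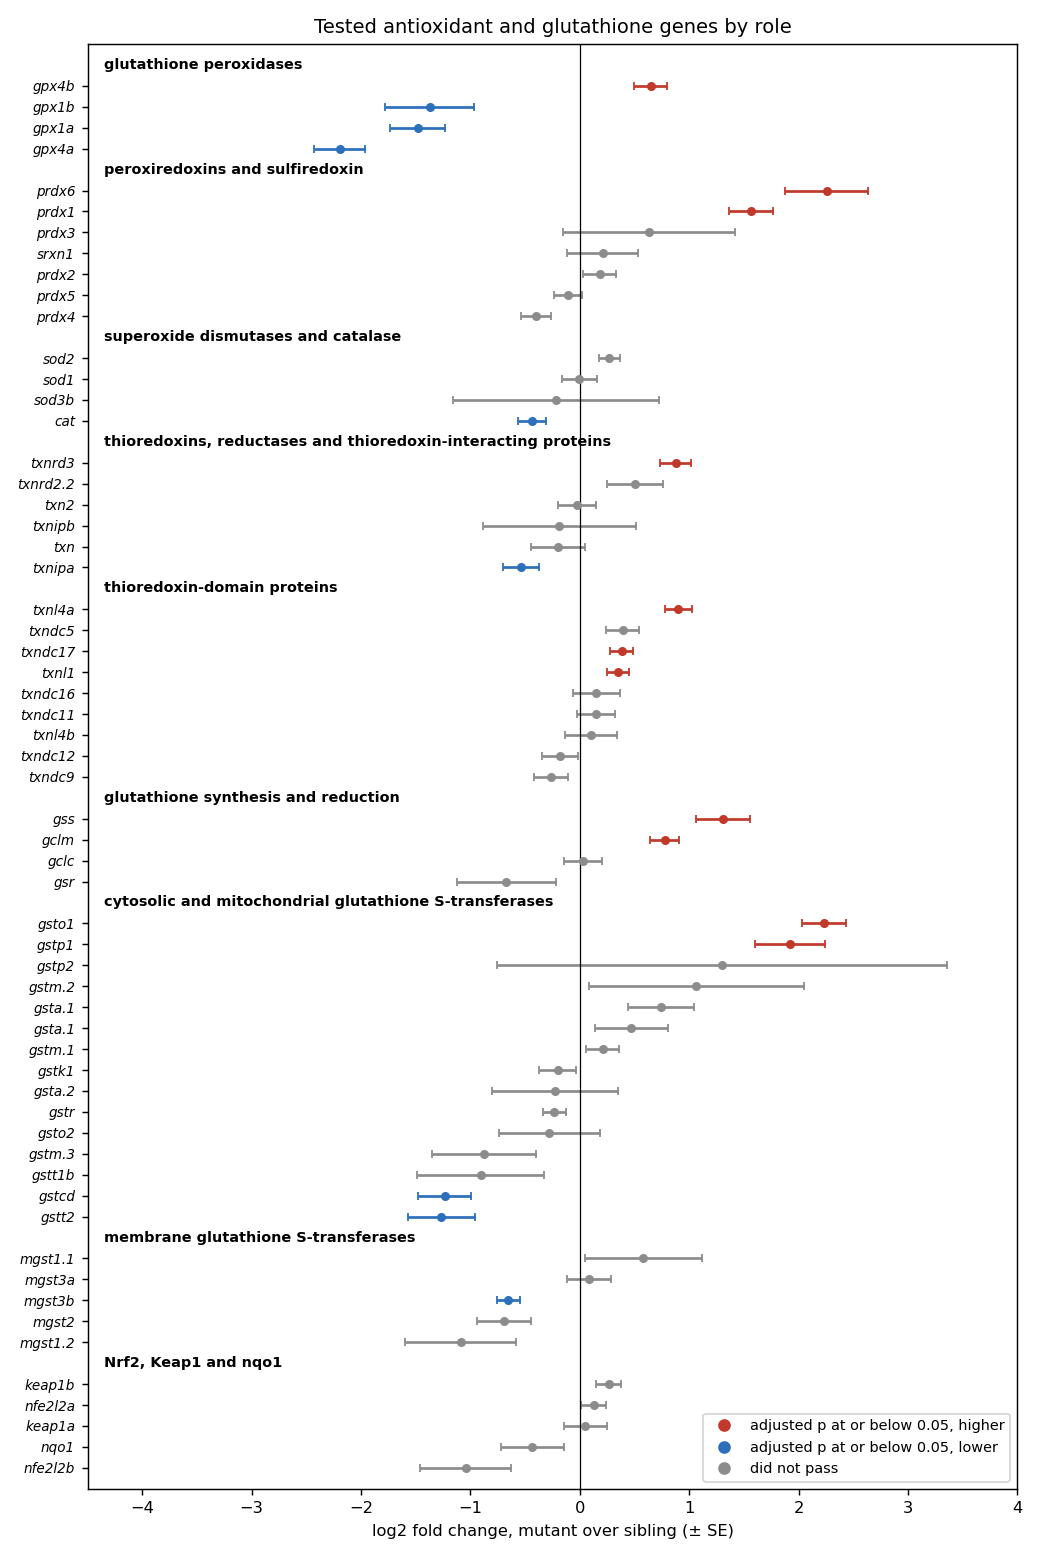
Log2 fold change of mutants over siblings (horizontal axis, bars ± SE) for the 59 tested genes, grouped by role and coloured by call. The glutathione peroxidases lie on both sides of 0, while the peroxiredoxins prdx6 and prdx1 and the transferases gsto1 and gstp1 lie farthest to the right.

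Among the peroxiredoxins, prdx6 and prdx1 rose and the other 4 did not pass (all tested genes 14.5% higher and 13.9% lower). prdx6, a peroxiredoxin with 1 active cysteine that uses glutathione and also has phospholipase activity, was at 148.9, 177, 254 and 204 CPM in mutants and 33.9, 17.4, 72.9 and 40.0 CPM in siblings. The lowest mutant lay above the highest sibling, and the mean difference was 4.78-fold (log2 fold change 2.26, SE 0.381, edgeR adjusted p = 0.0022). prdx1, a cytosolic peroxiredoxin, was at 277, 254, 282 and 320.3 CPM in mutants and 103, 76.8, 68.8 and 135 CPM in siblings, without overlap and 2.96-fold higher (log2 fold change 1.57, SE 0.203, edgeR adjusted p = 0.000537).

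prdx2 was the most abundant peroxiredoxin, at 768, 576, 727 and 652 CPM in mutants and 681, 465, 684 and 572 CPM in siblings. Its genotypes overlapped and the difference was within the spread (log2 fold change 0.18, SE 0.149, edgeR adjusted p = 0.408). The gene ID of prdx2 carries the symbol PRDX1 in the RefSeq annotation of another assembly, so the file and that annotation differ on which orthologue it is. prdx5, of mitochondria and peroxisomes, was at 283 ± 24.6 CPM in mutants and 304 ± 45.2 CPM in siblings (edgeR adjusted p = 0.585). prdx4, the peroxiredoxin of the endoplasmic reticulum, was at 90.2 ± 13.3 CPM in mutants and 119 ± 15.05 CPM in siblings (log2 fold change -0.40, SE 0.137, edgeR adjusted p = 0.0562). prdx4 passed as lower with the library number as a block (edgeR adjusted p = 0.0122), without mutant library 4 (edgeR adjusted p = 0.0299) and without sibling library 2 (edgeR adjusted p = 0.0375). srxn1, sulfiredoxin, which repairs overoxidized peroxiredoxins, was at 3.19 ± 0.560 CPM in mutants and 2.76 ± 1.01 CPM in siblings (edgeR adjusted p = 0.677).

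Catalase was slightly lower and the superoxide dismutases did not pass (25% of 4 tested genes lower, against 13.9% of all tested genes). cat, which breaks down hydrogen peroxide in peroxisomes, was at 84.3, 100.01, 83.1 and 69.1 CPM in mutants and 114, 129, 106 and 107 CPM in siblings. The ranges did not overlap, and the fall was 1.35-fold (log2 fold change -0.43, SE 0.128, edgeR adjusted p = 0.0302). The call on cat was lost when mutant library 1, 4 or 5 was left out (edgeR adjusted p = 0.0691, 0.0646 and 0.107) and when sibling library 1, 2 or 5 was left out (edgeR adjusted p = 0.0669, 0.117 and 0.0718), with log2 fold changes of -0.31 to -0.43.

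sod1, the copper-zinc enzyme of the cytosol, was at 84.9 ± 10.4 CPM in mutants and 85.0 ± 17.2 CPM in siblings (log2 fold change 0.00, SE 0.160, edgeR adjusted p = 0.991), and its model overlaps scaf4a on the same strand, with 56.8% as many counts. sod2, the manganese enzyme of mitochondria, was at 89.1 ± 5.70 CPM in mutants and 73.9 ± 5.21 CPM in siblings (log2 fold change 0.27, SE 0.0967, edgeR adjusted p = 0.0641). sod2 passed as higher with the library number as a block (edgeR adjusted p = 0.0474) and without mutant library 5 (edgeR adjusted p = 0.0390). It shares its locus with wtap on the opposite strand, which held 107% as many counts and was lower in mutants (log2 fold change -0.42, edgeR adjusted p = 0.0044). Extracellular sod3b was below 1 CPM on average in both genotypes.

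In the thioredoxin system txnrd3 rose and txnipa fell. That is 16.7% of 6 tested genes in each direction, against 14.5% higher and 13.9% lower of all tested genes. txnrd3, a reductase that passes electrons from NADPH to thioredoxin, was at 488, 475, 484 and 558 CPM in mutants and 254, 234, 249 and 353 CPM in siblings. Library 5 was the highest of each genotype, and all mutants lay above all siblings (1.84-fold, log2 fold change 0.88, SE 0.141, edgeR adjusted p = 0.00172). txnipa, an arrestin-like protein known in mammals to bind thioredoxin and to restrain glucose uptake, was at 420.5, 527, 376 and 384 CPM in mutants and 533, 807, 606 and 533 CPM in siblings. The mutants lay below the siblings by a small gap (log2 fold change -0.54, SE 0.166, edgeR adjusted p = 0.0371). The call on txnipa was lost without mutant library 1, 4 or 5 (edgeR adjusted p = 0.0850, 0.0927 and 0.112) and without sibling library 2, 4 or 5 (edgeR adjusted p = 0.113, 0.0678 and 0.0519), with log2 fold changes of -0.36 to -0.57. The thioredoxins themselves did not pass: txn, of the cytosol, was at 19.2 ± 5.31 CPM in mutants and 22.1 ± 6.78 in siblings, and mitochondrial txn2 was at 32.3 ± 5.78 against 32.9 ± 5.39. txnrd2.2 and txnipb did not pass either, with means under 5 CPM.

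Of 9 proteins named for a thioredoxin fold, txnl4a, txndc17 and txnl1 rose and the other 6 did not pass. That is 33.3% higher, against 14.5% of all tested genes. By level, 36.9% of all tested genes between 10 and 100 CPM changed in either direction, where all but txnl1 lay. Above 100 CPM, where txnl1 lay, 59.2% did. txnl4a, known in mammals and yeast as a component of the spliceosome, was at 50.1, 40.6, 45.05 and 40.0 CPM in mutants and 27.2, 22.0, 22.8 and 22.1 CPM in siblings. The genotypes were well apart (log2 fold change 0.90, SE 0.125, edgeR adjusted p = 0.000767). txnl1, a thioredoxin-like protein that associates with the proteasome in mammals, was at 154, 179, 165 and 144 CPM in mutants and 115, 138, 129 and 122 CPM in siblings (log2 fold change 0.35, SE 0.103, edgeR adjusted p = 0.0310). txndc17 was at 54.3, 50.4, 46.2 and 47.3 CPM in mutants and 41.2, 35.7, 35.6 and 39.2 CPM in siblings (log2 fold change 0.38, SE 0.105, edgeR adjusted p = 0.0225). Both txnl1 and txndc17 separated the genotypes by a narrow margin, and their calls lay near the threshold. txndc17 was lost without mutant library 1 or 2 (edgeR adjusted p = 0.0653 and 0.0535) or sibling library 2 or 4 (edgeR adjusted p = 0.0510 and 0.0603), with its log2 fold change then at 0.34 to 0.38. txnl1 was lost without mutant library 1, 2 or 4 (edgeR adjusted p = 0.0524, 0.0812 and 0.0647) or sibling library 1, 4 or 5 (edgeR adjusted p = 0.0867, 0.0582 and 0.0690), with its log2 fold change then at 0.30 to 0.37. With scaling by library size alone txndc17 had an edgeR adjusted p of 0.182 and txnl1 one of 0.218.

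txndc5, a disulfide isomerase of the endoplasmic reticulum, was at 90.4 ± 10.99 CPM in mutants and 68.7 ± 12.5 CPM in siblings and did not pass (edgeR adjusted p = 0.0821), but it did with the library number as a block (log2 fold change 0.40, edgeR adjusted p = 0.00793). txndc9, txndc11, txndc12, txndc16 and txnl4b lay between 8.55 and 81.8 CPM in single libraries and did not pass. txndc16 overlaps gpr137c on the opposite strand, which held 209% as many counts and was higher in mutants (log2 fold change 1.40, edgeR adjusted p = 0.000113).

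Glutathione S-transferases held both the most abundant gene of the group and large differences in single copies. Of the 15 tested soluble ones 2 rose (gstp1 and gsto1), 2 fell (gstcd and gstt2) and 11 did not pass. That is 13.3% in each direction, near the 14.5% higher and 13.9% lower of all tested genes. gstp1, the pi-class transferase, was at 3031, 2555, 1579 and 4359.8 CPM in mutants and 562, 664, 698 and 1119.9 CPM in siblings. The lowest mutant lay above the highest sibling, the mutants varied widely among themselves, and the mean difference was 3.79-fold (log2 fold change 1.92, SE 0.318, edgeR adjusted p = 0.00199). By mean CPM gstp1 ranked 35 among all genes in mutants and 170 in siblings. Its level corresponds to 3226 RPKM in mutants and 852 RPKM in siblings. The neighbouring gene gstp2 starts 11784 bases away, and the RefSeq annotation of another assembly names the same gene IDs gstp1.2 and gstp1.1, so how reads were split between these near copies is uncertain. The sum of gstp1 and gstp2 was 2892 ± 1175 CPM in mutants and 766 ± 253 CPM in siblings, with no overlap. Both genes lie on chromosome 14, 10.5 Mb from rraga (chr14:14027427-14094406, GRCz11). Of the 535 tested genes of that chromosome, 17.2% were higher and 14% lower in mutants. These shares cover the whole chromosome and do not describe the stretch near rraga. The part of this position in the gstp1 level was not tested.

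gsto1, an omega-class transferase with thiol transferase activity, was at 14.97, 15.1, 19.6 and 16.2 CPM in mutants and 3.29, 3.74, 4.34 and 2.63 CPM in siblings. Both groups were tight and far apart, at 4.71-fold (log2 fold change 2.24, SE 0.201, edgeR adjusted p = 6.8e-05). Its neighbour gsto2, which starts 16464 bases away, was at 125 ± 74.0 CPM in mutants and 152 ± 98.8 CPM in siblings and did not pass (edgeR adjusted p = 0.701). gstcd, a transferase-like protein with a C-terminal domain of that family, was at 6.03, 5.97, 9.27 and 4.35 CPM in mutants and 15.3, 11.8, 18.2 and 15.001 CPM in siblings. All mutants lay below all siblings (log2 fold change -1.24, SE 0.246, edgeR adjusted p = 0.00511). gstt2, of the theta class, was at 1.18 ± 0.179 CPM in mutants and 2.85 ± 0.709 in siblings (log2 fold change -1.27, SE 0.308, edgeR adjusted p = 0.0133). It overlaps chek2 on the opposite strand, which held 172% as many counts and did not pass (log2 fold change 0.25, edgeR adjusted p = 0.701).

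gstr was at 92.4 ± 4.68 CPM in mutants and 109 ± 12.5 CPM in siblings (edgeR adjusted p = 0.134), and gstm.1, of the mu class, was at 64.0 ± 8.83 against 55.5 ± 9.43. gstm.3 was below every sibling in every mutant, at 11.4, 2.06, 4.56 and 13.2 CPM against 13.8, 13.8, 16.2 and 13.5, but did not pass (edgeR adjusted p = 0.209). The mitochondrial gstk1 was at 27.4 ± 6.31 against 31.5 ± 3.64 CPM. The symbol gsta.1 is shared by a pair of alpha-class genes. That with the ID ENSDARG00000090228 was at 12.3 ± 5.17 CPM in mutants and 7.39 ± 1.57 in siblings (edgeR adjusted p = 0.100), and it passed without mutant library 5 (edgeR adjusted p = 0.0306). It overlaps TMEM14A on the opposite strand, which held 218% as many counts and was lower in mutants (log2 fold change -1.05, edgeR adjusted p = 0.00233). The other gsta.1, gsta.2, gstm.2, gstp2 and gstt1b had means under 11 CPM and did not pass.

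Of the 5 membrane-bound transferases, mgst3b fell and the other 4 did not pass (20% lower, against 13.9% of all tested genes). mgst3b, a member of the microsomal family that also makes leukotrienes, was at 120.3, 109, 104 and 119 CPM in mutants and 189, 155, 194 and 174 CPM in siblings. The difference was 1.57-fold with no overlap (log2 fold change -0.65, SE 0.104, edgeR adjusted p = 0.0016). Its related gene mgst3a was at 13.1 ± 2.42 CPM in mutants and 12.4 ± 2.66 CPM in siblings (edgeR adjusted p = 0.790). mgst2 was at 8.87 ± 1.95 CPM against 14.3 ± 4.45, with an edgeR adjusted p of 0.0638 that became 0.00936 with the library number as a block and 0.0454 without mutant library 2. mgst1.2 was at 4.02 ± 1.81 against 8.59 ± 5.07 CPM, with an edgeR adjusted p of 0.145 that became 0.0344 with the block and 0.0362 without sibling library 2. mgst1.1 was at 1.72 ± 1.13 against 1.15 ± 0.210 CPM.

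Ratios of related genes within a library do not depend on scaling factors, and they were compared for 14 of 16 planned pairs. Raw counts were used, with 0.5 added to each, which matters where a gene has few counts. The 2 genotypes did not overlap in 5 pairs. Of single tested genes 31.4% did not overlap, and no such share was taken over gene pairs in general. Each of the 5 pairs holds a gene that passed the edgeR test, so these ratios are not separate support for those calls. The exact two-sided permutation p of each was 0.0286, the smallest possible for 4 against 4 libraries. Adjusted over the 14 pairs each became 0.08, so 0 of the 14 passed. With that smallest p, no pair could pass unless more than these 5 pairs separated. Not passing therefore says nothing about the size of a difference in any 1 pair. The count of gpx4a for each count of gpx4b was 0.245 in siblings and 0.0343 in mutants (geometric means over 4 libraries), a difference of -2.84 on the log2 scale. gsto1 per gsto2 went from 0.0260 in siblings to 0.146 in mutants, and prdx1 per prdx2 from 0.156 to 0.417. mgst3a per mgst3b was 0.0687 in siblings and 0.115 in mutants. The ratio of the ligase subunits, gclc per gclm, was 1.12 in siblings and 0.669 in mutants. The ratios keap1a to keap1b, gpx1a to gpx1b, sod1 to sod2, nfe2l2a to nfe2l2b, gstp1 to gstp2, txn to txn2, txnrd2.2 to txnrd3, txnipa to txnipb and prdx3 to prdx5 overlapped between genotypes. Of these 9 overlapping pairs, 4 moved in the same direction in 4 of 4 same-numbered library pairs: nfe2l2a to nfe2l2b, gstp1 to gstp2 and prdx3 to prdx5 were higher in mutants, and sod1 to sod2 was lower. gstp2 had 0 counts in mutant libraries 1, 2 and 4 and in sibling library 1. There the gstp1 to gstp2 ratio is set by the added 0.5 and the gstp1 count, so it is not a measured ratio. The permutation test did not use the library numbers.

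**Figure D3:**
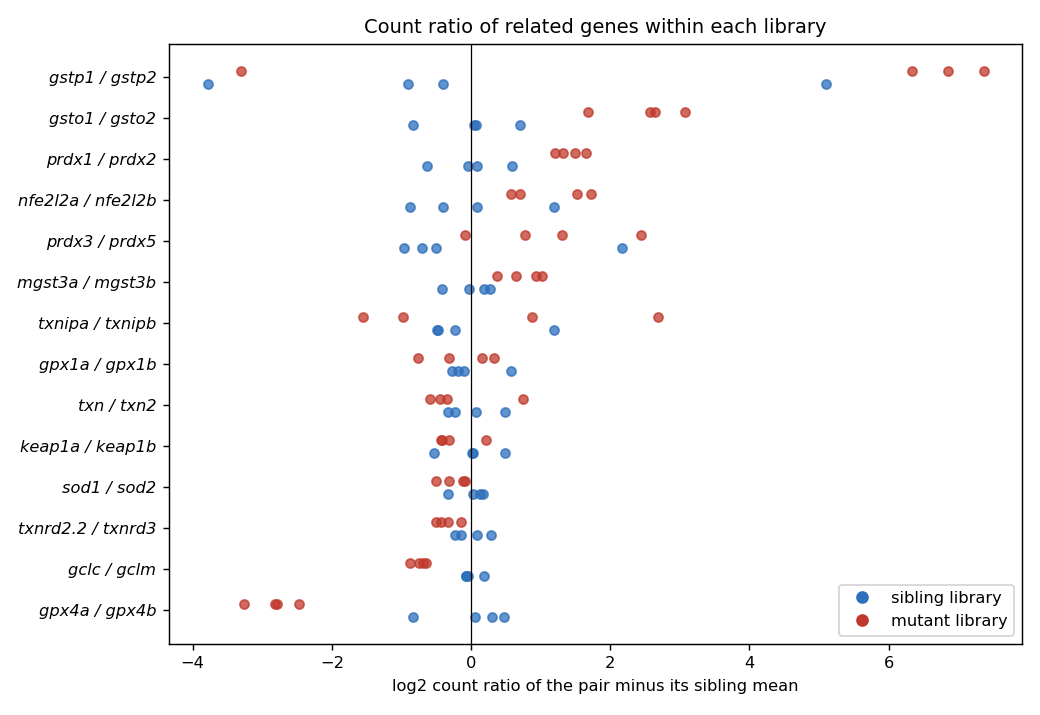
Log2 count ratio of each of 14 gene pairs within each library, minus the sibling mean of that pair (horizontal axis), with 1 point per library. The mutant points of gpx4a over gpx4b lie entirely to the left of the siblings, and those of gsto1 over gsto2 and prdx1 over prdx2 entirely to the right.

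Some genes were highest or lowest in the same library number in both genotypes. The 6 described here were chosen after their values were seen. prdx3, the mitochondrial peroxiredoxin, was at 11.03, 13.0, 33.6 and 5.75 CPM in mutants and 3.81, 3.64, 29.5 and 4.00 CPM in siblings, highest in library 4 of each genotype. Its log2 fold change of 0.63 had an SE of 0.785 (edgeR adjusted p = 0.600), which became 1.00 with the library number as a block (edgeR adjusted p = 0.0424) and 2.05 without sibling library 4 (edgeR adjusted p = 0.0278). gsto2 was at 92.6, 97.8, 235 and 74.3 CPM in mutants and 121.0, 88.6, 298 and 98.3 CPM in siblings, likewise highest in library 4.

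gsr ran the other way, lowest in library 4 of each genotype, at 47.5, 86.5, 14.3 and 35.2 CPM in mutants and 87.9, 94.1, 48.3 and 61.6 CPM in siblings. gstp2 had 0, 0, 0 and 1290 counts in mutants, and 42.8 CPM in mutant library 5 against 15.3 CPM in sibling library 5, with 0 to 1.22 CPM in the other siblings. gstm.2 was at 4.78, 6.89, 0.156 and 12.8 CPM in mutants and 1.79, 5.71, 0.391 and 3.84 CPM in siblings, lowest in library 4. nfe2l2b was highest in library 5 of each genotype, in mutants by little (5.51 against 5.37 CPM in library 4). Within library numbers prdx3 was higher in mutants in 4 of 4, and gsr and nfe2l2b were lower in 4 of 4. gsto2, gstm.2 and gstp2 did not keep 1 direction. Summed pigment-cell markers were also highest in library 5 of each genotype, at 6852 CPM and 4435 CPM, and their part in these values was not tested. The labels do not say what a library number stands for.

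**Figure D4:**
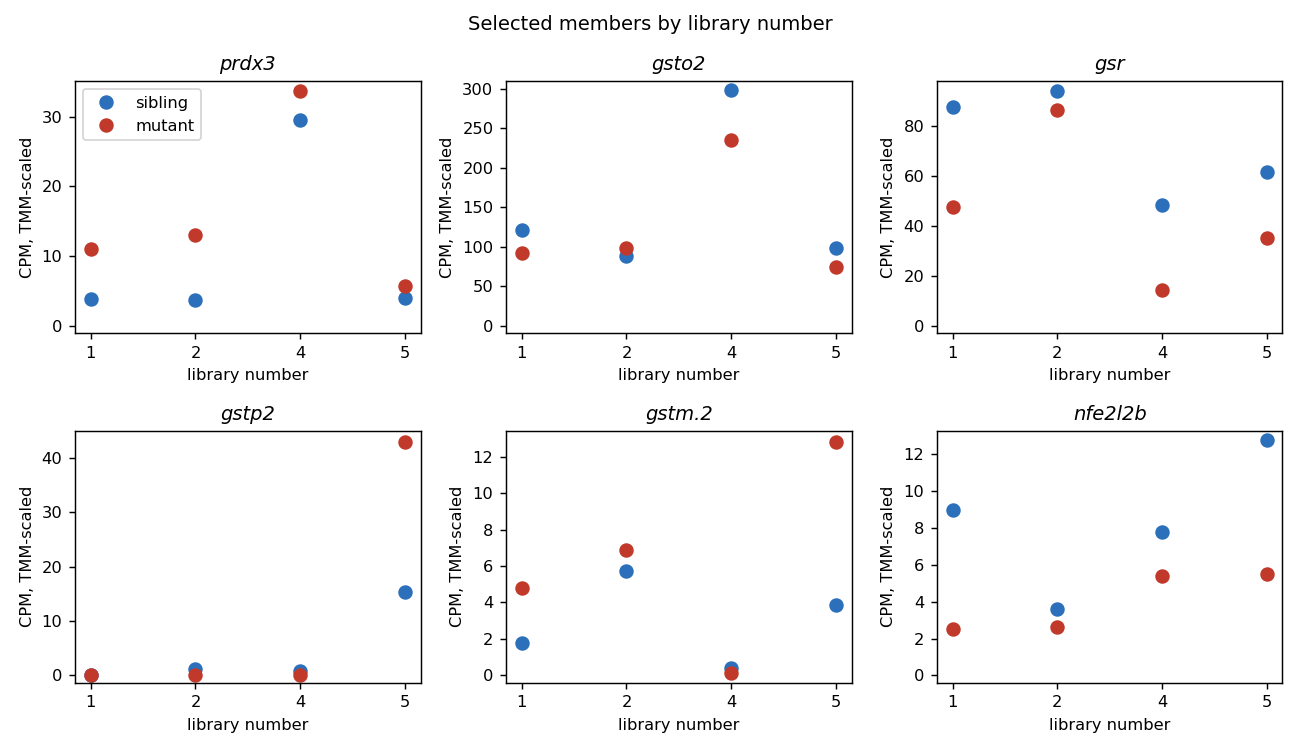
Level in CPM of 6 genes (vertical axes) by library number 1, 2, 4 and 5 (horizontal axes), with 1 point per library and genotype. prdx3 and gsto2 peak in library 4 in both genotypes, gsr is lowest there, and gstp2 is seen mainly in library 5.

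Genes around the antioxidant enzymes were read from 5 lists, chosen with earlier results of these data known. Of their 106 tested genes 20 were higher (18.9%, against 14.5% of all tested genes) and 14 lower (13.2%, against 13.9%). These counts became 33 and 19 with the library number as a block (all genes 17.8% and 16.6%) and 12 and 24 with scaling by library size alone (all genes 10.3% and 19.4%), and without mutant library 1 the lower count was 8 (all genes 11%). Among 15 tested Nrf2 partners and regulators, 4 were higher (26.7%) and 1, bach1b, was lower (6.67%), with a median log2 fold change of 0.13. mafk, a small Maf protein that pairs with Nrf2 on DNA, was at 54.0 ± 5.93 CPM in mutants and 21.9 ± 1.32 in siblings (log2 fold change 1.31, SE 0.117, edgeR adjusted p = 6.5e-05). rbx1, the RING subunit of cullin ligases, was higher by 0.56 (SE 0.106, edgeR adjusted p = 0.0042). sqstm1, the autophagy receptor p62, which binds Keap1, was at 329 ± 41.9 CPM against 142 ± 49.2 (log2 fold change 1.22, SE 0.257, edgeR adjusted p = 0.00698). Like rraga (chr14:14027427-14094406), sqstm1 lies on chromosome 14 (chr14:16765992-16771405, GRCz11). The part of this position in its level was not tested. The pair of genes for Bach1, a repressor that competes with Nrf2 for the same sites, split: bach1b fell by 0.89 (SE 0.232, edgeR adjusted p = 0.0183) and bach1a rose by 0.54 (SE 0.160, edgeR adjusted p = 0.0323), both named after their values were seen.

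Of 21 other known Nrf2 targets (median 0.15), 5 were higher (23.8%) and 3 lower (14.3%), against 14.5% and 13.9% of all tested genes. blvrb, biliverdin reductase B, was at 193 ± 16.0 CPM in mutants and 44.7 ± 8.05 in siblings (log2 fold change 2.11, SE 0.144, edgeR adjusted p = 1.4e-05). pgd, an NADPH-producing enzyme of the pentose phosphate pathway, rose by 0.57 (SE 0.121, edgeR adjusted p = 0.00707). slc7a11, the cystine importer that feeds glutathione synthesis, was at 25.05 ± 1.45 CPM against 46.8 ± 13.2 and fell by 0.90 (SE 0.194, edgeR adjusted p = 0.00753).

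Of 28 tested genes of glutathione turnover and cysteine supply, slc7a11 among them again, 5 were higher and 5 lower (median -0.10). That is 17.9% in each direction, against 14.5% higher and 13.9% lower of all tested genes. cth, which makes cysteine from cystathionine, was at 203 ± 55.0 CPM in mutants and 48.0 ± 7.98 in siblings (log2 fold change 2.08, SE 0.209, edgeR adjusted p = 1.3e-04). cndp2, a dipeptidase that splits cysteinylglycine, rose by 1.03 (SE 0.120, edgeR adjusted p = 2.8e-04) and lap3, an aminopeptidase, by 0.70 (SE 0.116, adjusted p = 0.00205).

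Of 25 tested genes of selenoprotein synthesis, other selenoproteins and methionine sulfoxide reductases, 4 were higher and 2 lower (median 0.18). These are 16% and 8%, against 14.5% and 13.9% of all tested genes. selenop, the secreted selenium carrier, was at 232 ± 38.7 CPM in mutants and 1073 ± 206 in siblings (log2 fold change -2.21, SE 0.171, edgeR adjusted p = 2.7e-05). msrb2, a mitochondrial methionine sulfoxide reductase not known as a selenoprotein, was at 0.361 ± 0.162 CPM against 2.41 ± 1.64 (edgeR adjusted p = 0.00872). eefsec, the elongation factor for selenocysteine, rose by 0.59 (SE 0.138, edgeR adjusted p = 0.0110).

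Of 18 tested oxidant sources (median 0.11), 2 were higher (11.1%) and 4 lower (22.2%), against 14.5% and 13.9% of all tested genes. cybb, the catalytic subunit of the phagocyte NADPH oxidase, was at 374 ± 64.0 CPM in mutants and 828 ± 68.4 in siblings (log2 fold change -1.15, SE 0.136, edgeR adjusted p = 3.2e-04). Its partner cyba was at 651 ± 79.6 CPM against 447 ± 57.03 (log2 fold change 0.54, SE 0.128, edgeR adjusted p = 0.0116). sqor, the mitochondrial sulfide oxidase, fell by 0.66 (SE 0.120, edgeR adjusted p = 0.00333).

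**Figure D5:**
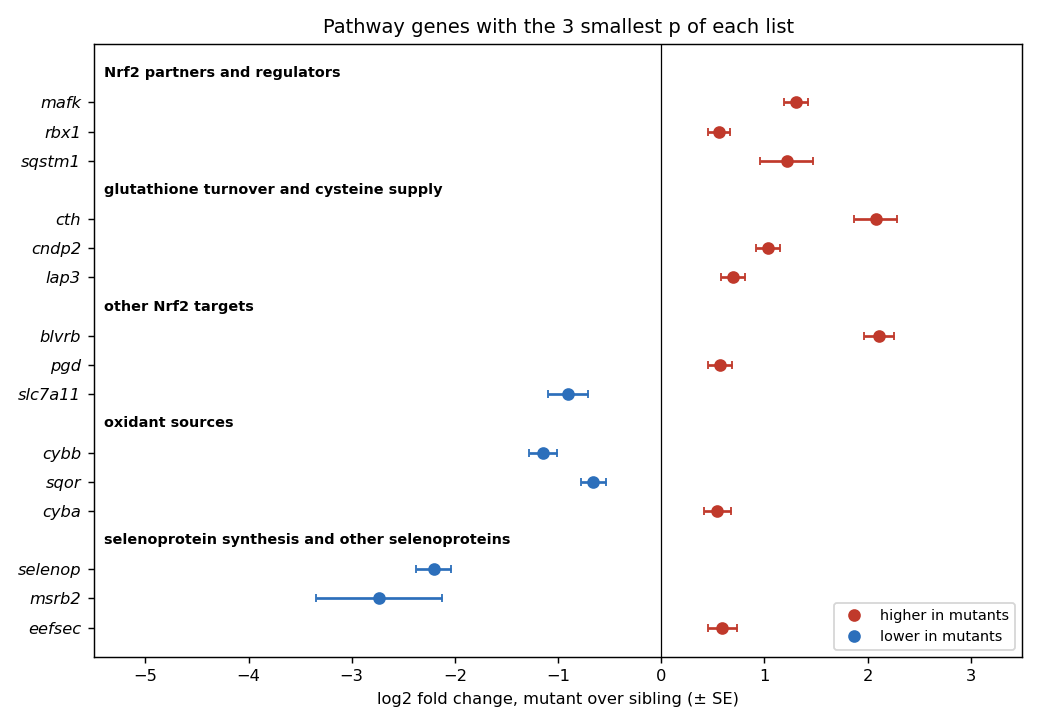
Log2 fold change of mutants over siblings (horizontal axis, bars ± SE) for the 3 genes with the smallest p in each of the 5 lists, coloured by call. blvrb and cth lie farthest to the right and msrb2 and selenop farthest to the left.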

How the data were processed

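RNA-seq libraries (SMART-Seq v4, polyA RNA) of 4 rraga mutant and 4 sibling samples were read from the authors' table. The deposited values used are raw counts per gene, made per the submitters' processing notes with HISAT2 2.0.5, StringTie 1.3.3b and featureCounts 1.5.0 on GRCz11. No source used here gives the strand setting. The table's other 16 per-library columns were not used.

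Counts were tested with edgeR 4.0.16 in R 4.3.3 (TMM factors, filterByExpr with a minimum count of 10, quasi-likelihood F-test, two-sided, Benjamini-Hochberg over 16086 genes, threshold 0.05). SE is the absolute log2 fold change over the square root of F. RPKM used the gene length in the table. The pipeline was tested on simulated data. Alternatives were other scaling factors, other filters, limma-voom (limma 3.58.1), DESeq2 1.42.0, the library number as a block, and each library left out in turn. At this depth 6 members, with at most 40 counts in any library, were not tested.

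The members and lists were chosen with earlier results of these data known. Values per library were given for the Nrf2 and Keap1 genes, the most abundant gene of each role, and up to 10 called genes in each direction with the largest change at 10 CPM or more. The 3 genes with the smallest p were named of each list. Columns were matched to genotypes, and the column numbers 1, 2, 4 and 5 are not those of the sample titles. Same-numbered columns deviated together (correlation 0.18 to 0.412, against -0.251 to 0.0119 for different numbers), so the number was taken to pair the samples, from the data alone. The genotype mean of each gene was subtracted first, which lowers the values for different numbers when those for the same number rise. The main fit did not use the pairing. No replicates agreed within sampling noise (chi-square per degree of freedom 51.5 to 102.1). Of the 65 symbols, 46 matched the RefSeq annotation of another assembly.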

Additional observations from a re-analysis of the deposited data

Results flagged for a closer look

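Of 118 sets of 4 libraries of 1 genotype examined, 15 held a library far from the other 3. For normally distributed values about 5.9 (1 in 20) would be flagged. CPM need not be so distributed and all sets share the same 8 libraries, so an excess over chance was not tested. Library 4 gave 5 of the 15. prdx3 was at 29.5 CPM in sibling library 4 against 3.64 to 4.00 in the other siblings. gsto2 was at 298 CPM in sibling library 4 (88.6 to 121.0 in the others) and at 235 CPM in mutant library 4 (74.3 to 97.8). gstm.3 was at 16.2 CPM in sibling library 4 (13.5 to 13.8), and txn2 was low there, at 24.9 CPM (34.6 to 36.3).

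Library 5 gave 7. txnrd3 was at 558 CPM in mutant library 5 (475 to 488) and 353 CPM in sibling library 5 (234 to 254). gstp2 was at 42.8 CPM in mutant library 5 (0 in the others) and 15.3 CPM in sibling library 5 (0 to 1.22). keap1a was at 145 CPM in mutant library 5 (86.0 to 93.7), sod3b at 1.90 CPM in sibling library 5 (0.313 to 0.391), and sod2 was low in mutant library 5, at 80.6 CPM (91.7 to 92.5).

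The other 3 were siblings: txnl4a at 27.2 CPM in library 1 (22.0 to 22.8), txndc11 at 17.6 CPM in library 1 (25.2 to 26.3), and txnipb at 1.02 CPM in library 2 (2.07 to 2.18).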

How the results depend on the processing

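Of 19 changed members, 13 kept their call under all 16 alternatives: gsto1, prdx1, gstp1, prdx6, txnl4a, txnrd3, gss, gclm and gpx4b higher, and gpx4a, gpx1a, mgst3b and gstcd lower. None of the 19 reversed. Of the 40 members that did not pass, 16 changed sign under some alternative, never past the threshold. With library size alone these were nfe2l2a (-0.045), txndc11 (-0.029), txndc16 (-0.030), mgst3a (-0.091), txnl4b (-0.063), keap1a (-0.12) and gclc (-0.15). keap1a and gclc also did so with upper-quartile factors (-0.018 and -0.035) and with at least 5 CPM in 4 libraries (-0.016 and -0.041). sod1 and txn2 did with median-of-ratios factors (0.041 and 0.022), no filter (0.041 and 0.022) and DESeq2 (0.041 and 0.021), and sod1 with limma-voom (0.019) and the replicate block (0.012). gstp2, with 0 counts in 3 mutant libraries, went from 1.299 to -2.11 with limma-voom and -1.27 with the replicate block. Leaving out 1 library gave prdx3 -0.043 to 2.05, mgst3a -0.011 to 0.22, txnl4b -0.020 to 0.24, txn -0.37 to 0.063, gsto2 -0.78 to 0.29, keap1a -0.12 to 0.17, gclc -0.052 to 0.21, gsta.2 -0.63 to 0.44, sod1 -0.10 to 0.10, txnipb -0.75 to 0.18, sod3b -1.47 to 0.84, txn2 -0.14 to 0.12 and gstp2 -9.89 to 3.92, where the lowest leaves all mutants at 0 counts and is no measure of size. The overlapping log2 ratios of gpx1a to gpx1b (-0.31 to 0.054), txn to txn2 (-0.46 to 0.0034) and txnipa to txnipb (-0.55 to 0.86) also changed sign. With the replicate block, members higher went from 11 to 14 and members lower from 8 to 13; the block gained 8 calls (sod2, txndc5 and prdx3 higher, nfe2l2b, mgst2, mgst1.2, prdx4 and gsr lower) and lost 0. Leaving out 1 library gave 9 to 13 higher and 5 to 9 lower members. Pathway genes higher (20) became 12 with library size alone and 33 with the block, and those lower (14) became 24 with library size alone; leaving out 1 library gave 15 to 20 and 8 to 15. All tested genes went from 2334 higher and 2233 lower to 1659 and 3123 with library size alone. The causes were not tested. txnipa and cat also lost their calls with median-of-ratios factors (adjusted p = 0.0577 and 0.0563) and with no filter on low counts (adjusted p = 0.0716 and 0.0854). txndc17 and txnl1 lost theirs with upper-quartile factors (adjusted p = 0.0518 and 0.0664). sod2 (adjusted p = 0.0421 and 0.0174) was gained with median-of-ratios factors and DESeq2, txndc5 (0.0306) and the gsta.1 gene of ID ENSDARG00000090228 (0.0463) with DESeq2. prdx4, mgst2 and gstr were gained with library size alone (adjusted p = 0.0130, 0.0239 and 0.0264). The rraga difference ranged from 0.46 to 0.70 and passed throughout. gstt2 and gpx1b were not tested with a minimum of 5 CPM in 4 libraries, and depth left 6 members untested.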
